A study of Homo sapiens with 6 samples.

Results

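The ISG15 conjugation system is the group of proteins that attaches the small ubiquitin-like modifier ISG15 to other proteins and takes it off again. Its 6 members here are ISG15 itself, UBA7, UBE2L6, HERC5, HERC6 and USP18. They were taken by gene symbol from a table of 35009 genes, where each symbol stands in 1 row, so 6 of 6 were found, and 6 of 6 passed the filter on low counts that left 19944 genes to test. The members were set by name and not by a cut on their values, although earlier results of these data were known.

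The cells were THP-1, an established line from a human monocytic leukaemia that can be turned into macrophages in culture. The siMCT4 group holds 3 libraries of cells with MCT4 deficiency and ox-LDL, and the control group holds 3 libraries of cells with ox-LDL and no other agent named. Oxidised low-density lipoprotein (ox-LDL) was thus common to both groups, and no cells without it are compared here. MCT4, encoded by SLC16A3, exports lactate from glycolytic cells, and the series' title places its inhibition in macrophages and atherosclerosis. The labels give no non-targeting siRNA for the controls, so loss of MCT4 and the presence of an siRNA cannot be told apart. They also do not tie the libraries to separate cultures, so p-values measure the spread between these libraries, which may be technical.

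ISG15 is made as a precursor and joined through its C terminus to lysines of target proteins by a cascade like that of ubiquitin. UBA7 is the activating enzyme (E1), UBE2L6 the conjugating enzyme (E2), and HERC5 the main ligase (E3) in human cells. HERC6 takes the ligase role in mice. USP18 removes ISG15 from its targets and, apart from that activity, binds the interferon receptor chain IFNAR2 and dampens type I interferon signalling. All 6 genes are known to be induced by type I interferon, and macrophages are among the cells in which that response is strong.

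Total counts were 61880619 to 69103124 per siMCT4 library and 65010219 to 69181938 per control library. The targeted SLC16A3 averaged 11.7 ± 1.42 counts per 1000000 (CPM) in siMCT4 and 108 ± 7.21 CPM in control libraries (SD, n = 3 each), a log2 change of -3.20 (SE 0.102, edgeR adjusted p = 1.12e-06). Library 3 of siMCT4 stood apart from the other two. Over all tested genes, chi-square per degree of freedom between siMCT4 libraries was 9.05 for 1 and 2, 52.8 for 1 and 3 and 61.2 for 2 and 3, and it was 12.2 to 17.1 between control libraries. Every member is therefore given library by library, and with and without siMCT4 library 3. Of 12 monocyte and macrophage markers, 1 rose, 6 fell and 5 did not pass, while 20.6% of all tested genes were called higher and 20.8% lower. CD68, among those that did not pass, was at 967 CPM in siMCT4 and 920 CPM in control libraries. CD14 averaged 3.12 CPM in siMCT4 and 12.4 CPM in control libraries, and the 12 markers summed to 4889 to 5135 CPM in siMCT4 and 5774 to 5854 CPM in control libraries. Of the other cell types' marker lists, that of B cells, with 4 genes in the table, summed to 8.94 to 10.1 CPM in siMCT4 and 2.70 to 3.15 CPM in control libraries. That of T and NK cells, with 3 genes in the table, summed to 32.2 to 43.3 CPM in siMCT4 and 75.3 to 94.6 CPM in control libraries. Markers of fibroblasts, endothelium and smooth muscle, 8 in the table, summed to 363 to 396 CPM in siMCT4 and 671 to 690 CPM in control libraries. Those of dendritic cells (4 genes) summed to 5.46 to 6.53 CPM in siMCT4 and 5.28 to 5.76 CPM in control libraries, and those of epithelium and erythroid cells (5 genes) to 0.338 to 4.92 CPM in siMCT4 and 0.188 to 0.380 CPM in control libraries. No marker in the table was at 0 in all libraries, and the part of other cell types in the results was not tested.

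The promoters of 2 ligases and of the modifier show how these members differ in a sequence that interferon-induced genes are known for. The interferon-stimulated response element, bound by a complex that holds STAT2 and IRF9, contains GAAANNGAAA, and this string was searched on both strands of RefSeq windows (GRCh38.p14) from 250 bases before to 50 bases after each gene's RefSeq start. These starts can differ from the gene boundaries of the deposited table: that of ISG15 lies well inside the table's gene, which begins further upstream. The windows below run 5′ to 3′ on the gene's strand, with each match in capitals. They cover chr1:1013247-1013546 on the plus strand for ISG15, chr4:88456869-88457168 on the plus strand for HERC5 and chr4:88378602-88378901 on the plus strand for HERC6.
ISG15: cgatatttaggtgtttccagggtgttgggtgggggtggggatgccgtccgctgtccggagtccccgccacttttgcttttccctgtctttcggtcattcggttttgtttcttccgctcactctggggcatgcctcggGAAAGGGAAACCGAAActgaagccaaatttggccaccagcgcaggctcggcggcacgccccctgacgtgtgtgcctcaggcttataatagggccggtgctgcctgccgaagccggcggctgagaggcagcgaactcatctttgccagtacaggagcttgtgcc
HERC5: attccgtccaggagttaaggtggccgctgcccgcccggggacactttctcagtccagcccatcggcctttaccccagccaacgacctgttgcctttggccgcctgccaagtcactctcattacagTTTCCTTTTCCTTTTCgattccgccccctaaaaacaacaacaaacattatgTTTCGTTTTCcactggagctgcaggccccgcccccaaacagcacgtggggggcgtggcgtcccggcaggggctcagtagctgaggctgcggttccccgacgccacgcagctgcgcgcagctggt
HERC6: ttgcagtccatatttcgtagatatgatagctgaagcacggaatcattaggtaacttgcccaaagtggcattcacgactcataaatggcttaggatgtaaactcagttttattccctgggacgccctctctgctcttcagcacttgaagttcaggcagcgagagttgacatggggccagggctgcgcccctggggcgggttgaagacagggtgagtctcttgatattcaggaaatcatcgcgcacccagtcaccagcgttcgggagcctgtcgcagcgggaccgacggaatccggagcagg
The ISG15 window holds 2 matches that overlap and begin 113 and 107 bases before the start. The HERC5 window holds 3 matches on the opposite strand, beginning 125, 119 and 74 bases before the start, of which the first 2 overlap. The HERC6 window and both windows of UBE2L6 hold 0 matches, which says only that these letters are not in those windows. UBA7 and USP18 had no window and were not searched, so 2 of 4 members with a window hold a match. Of 27305 genes with a window, 1195 (4.38%) hold a match, and 18 of 24 genes (75.0%) of the interferon-induced list below. A match is a description of the sequence, and binding was not measured.

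Across the 6 members, 4 rose in siMCT4 cells (UBE2L6, HERC5, HERC6 and USP18) and 0 fell, while ISG15 and UBA7 did not pass an adjusted p of 0.05. Of the 19944 tested genes, 41.4% were called, 20.6% higher and 20.8% lower, by the quasi-likelihood test of edgeR, adjusted over all of them after Benjamini and Hochberg. The members' median log2 change was 1.49, beside -0.0064 over all tested genes. The 6 members lay higher in every siMCT4 library than in every control library, which 27.2% of tested genes also did, and 55.0% did not overlap in one direction or the other. Summed over the 6 members, the level was 326 to 332 CPM in siMCT4 and 166 to 175 CPM in control libraries. RNA was measured in bulk, so a change in the number of expressing cells and a change in RNA per cell cannot be told apart.

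**Figure D1:**
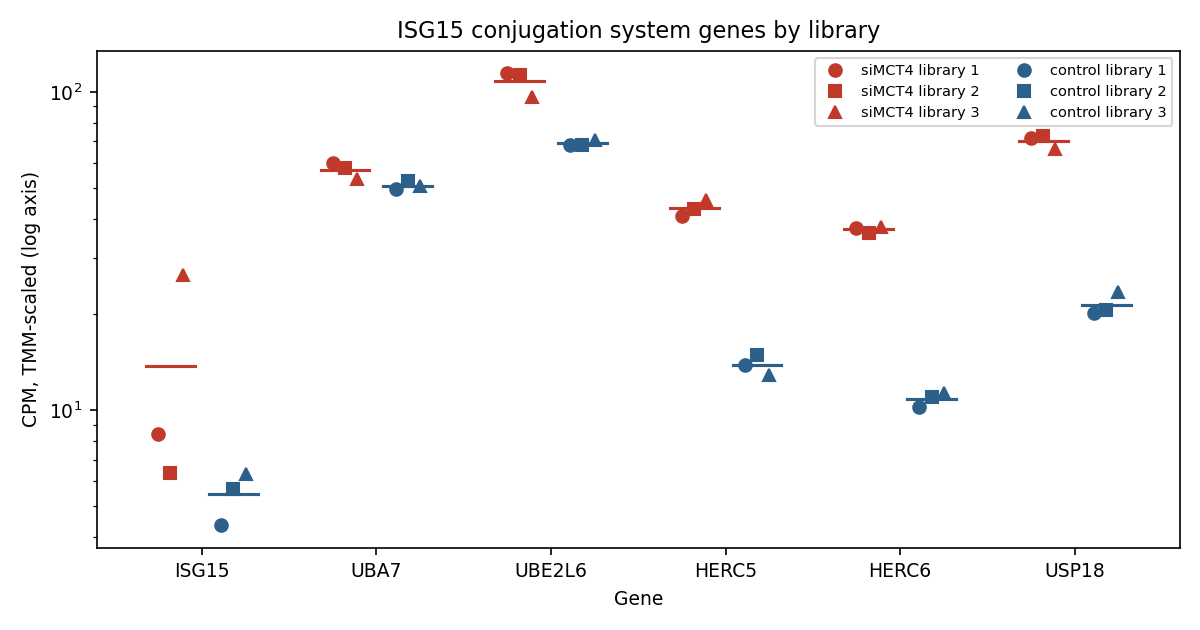
CPM of each of the 6 members in each library, with siMCT4 libraries left of control libraries; the axis is logarithmic, marker shapes are libraries 1 to 3 and short lines are means (n = 3 each). HERC5, HERC6 and USP18 separate the groups by about their whole range, while the ISG15 siMCT4 libraries spread from 6.36 to 26.7 CPM.

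ISG15, the modifier, is encoded by ENSG00000187608 on chr1:1001138-1014540 on the plus strand (GRCh38, as are all gene coordinates here). Its level was 8.44, 6.36 and 26.7 CPM in siMCT4 libraries 1, 2 and 3, from 539, 442 and 1892 counts, against 4.36, 5.68 and 6.32 CPM in control libraries 1, 2 and 3, from 292, 363 and 399 counts. SiMCT4 library 3 stood far above every other library, whereas siMCT4 library 2 lay just above the highest control. Against the control mean, the siMCT4 libraries were 1.55-fold, 1.17-fold and 4.89-fold higher. The means were 13.8 ± 11.2 CPM in siMCT4 and 5.45 ± 1.0 CPM in control libraries, so the coefficient of variation was 80.9% in siMCT4 and 18.4% in control libraries. The log2 change was 1.34 (SE 0.516, 95% confidence interval 0.13 to 2.55), with an unadjusted p of 0.0341 and an edgeR adjusted p of 0.0746, which does not pass. It was 0.46 (edgeR adjusted p = 0.10) without siMCT4 library 3, so that 1 library carries most of the fold change. Without siMCT4 library 2 it was 1.71 (edgeR adjusted p = 0.0280), which passes.

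UBA7 is the E1 enzyme that activates ISG15, encoded by ENSG00000182179 on chr3:49805209-49813953 on the minus strand. Its level was 60.0, 57.6 and 53.3 CPM in siMCT4 libraries 1, 2 and 3, against 49.4, 52.4 and 50.7 CPM in control libraries 1, 2 and 3. The groups did not overlap, although siMCT4 library 3 lay close to control library 2. The log2 change was 0.16 (SE 0.0611, 95% confidence interval 0.021 to 0.31, edgeR adjusted p = 0.0668), from means of 57.0 ± 3.41 CPM in siMCT4 and 50.8 ± 1.47 CPM in control libraries. UBA7 thus did not pass, and even the upper end of its interval was a small change beside those of the ligases. Without siMCT4 library 3 the log2 change was 0.24 (edgeR adjusted p = 0.00543), which passes.

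UBE2L6, the E2 enzyme that carries ISG15 from UBA7 to a ligase, is encoded by ENSG00000156587 on chr11:57551656-57568284 on the minus strand. Its level was 114, 113 and 96.6 CPM in siMCT4 libraries 1, 2 and 3, against 68.2, 68.3 and 70.4 CPM in control libraries 1, 2 and 3. The lowest siMCT4 library, library 3, was well above all controls, which lay close together. UBE2L6 rose by a log2 change of 0.65 (SE 0.0710, edgeR adjusted p = 0.000333), from means of 108 ± 9.82 CPM in siMCT4 and 68.9 ± 1.25 CPM in control libraries. The log2 change was 0.74 without siMCT4 library 3.

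HERC5 and HERC6 are ligases with a HECT domain and RCC1-like repeats, and their genes are neighbours on chromosome 4, 14022 bases apart and on the same strand. HERC5 (ENSG00000138646, chr4:88457119-88506163, plus strand) had 40.9, 43.0 and 45.6 CPM in siMCT4 libraries 1, 2 and 3, against 13.9, 14.9 and 13.0 CPM in control libraries 1, 2 and 3. HERC6 (ENSG00000138642, chr4:88378739-88443097, plus strand) had 37.3, 35.9 and 37.7 CPM in siMCT4 libraries 1, 2 and 3, against 10.3, 11.0 and 11.3 CPM in control libraries 1, 2 and 3. Both ligases were far above the controls in all 3 siMCT4 libraries, and siMCT4 library 3 was not set apart for either. HERC5 rose by a log2 change of 1.63 (SE 0.0803, edgeR adjusted p = 7.37e-06). HERC6 rose by a log2 change of 1.77 (SE 0.0704, edgeR adjusted p = 3.06e-06). On average HERC5 was 3.10-fold and HERC6 3.41-fold higher in siMCT4 cells, so the main human ligase and its neighbour, whose ligase role is known from mice, both rose. Leaving out siMCT4 library 3 gave log2 changes of 1.62 for HERC5 and 1.78 for HERC6.

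USP18, the protease that removes ISG15 and restrains the interferon receptor, is encoded by ENSG00000184979 on chr22:18150118-18177397 on the plus strand. Its level was 71.5, 72.5 and 66.4 CPM in siMCT4 libraries 1, 2 and 3, against 20.2, 20.7 and 23.5 CPM in control libraries 1, 2 and 3. All siMCT4 libraries lay near one another and far above the controls. USP18 rose by a log2 change of 1.71 (SE 0.0763, edgeR adjusted p = 4.98e-06), from means of 70.1 ± 3.29 CPM in siMCT4 and 21.4 ± 1.75 CPM in control libraries, and by 1.77 without siMCT4 library 3. USP18 shares 98.7% identity over 917 bases of its 2129-base transcript with USP41, a near-identical copy. USP41 had 28, 25 and 37 counts in siMCT4 and 12, 7 and 12 counts in control libraries, a log2 change of 1.45 (SE 0.425, edgeR adjusted p = 0.0291) that did not pass when any 1 library was left out. How the authors' counting divided shared reads is not given in the sources used here, so USP41 is uncertain, while its counts were far below the 1323 to 5040 counts of USP18. No other member had a copy with 90% identity over 100 bases.

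In exact two-sided permutation tests of CPM, each member reached p = 0.1, the smallest that 3 against 3 libraries allow. The 4 members that rose passed in all 26 alternative fits, with any 1 library left out among them. The number of members called higher was 4 to 6 over those fits, and 5 without siMCT4 library 3.

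Levels can be compared between genes only per length, for which the deposited FPKM (fragments per kilobase of gene and per 1000000 fragments) was used. In siMCT4 libraries UBE2L6 was the most abundant member, at 50.5 ± 4.69 FPKM (SD, n = 3). USP18 followed at 16.5 ± 0.809 FPKM, ISG15 at 15.4 ± 12.4 FPKM and UBA7 at 12.1 ± 0.744 FPKM, and the values of ISG15 overlapped those of both neighbours. HERC5 at 8.75 ± 0.464 FPKM and HERC6 at 6.18 ± 0.149 FPKM were lowest. ISG15 was at 9.39 and 7.07 FPKM in siMCT4 libraries 1 and 2 and at 29.6 FPKM in library 3, so its mean above those of UBA7 and HERC5 rests on library 3. HERC5, at 8.73 FPKM, was above ISG15 in siMCT4 library 2. In control libraries the order was UBE2L6 at 29.9 ± 0.356 FPKM, UBA7 at 9.98 ± 0.372 FPKM, ISG15 at 5.61 ± 1.02 FPKM, USP18 at 4.68 ± 0.347 FPKM, HERC5 at 2.62 ± 0.217 FPKM and HERC6 at 1.68 ± 0.0811 FPKM. ISG15 and USP18 overlapped there, and the other neighbours in the order did not. The E2 enzyme was above all other members in every library of both groups, and the ligases were below UBE2L6, UBA7 and USP18 in every library, while USP18 stood above UBA7 in siMCT4 and below it in control libraries.

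The balance within a library was followed by ratios of per-length levels. The deconjugase-to-modifier ratio, USP18 over ISG15, was 1.80, 2.42 and 0.527 in siMCT4 libraries 1, 2 and 3, against 0.985, 0.774 and 0.788 in control libraries 1, 2 and 3. Libraries 1 and 2 of siMCT4 lay above all controls and library 3 lay below all of them, and the mean log2 ratio differed by 0.64 (exact two-sided permutation p = 0.4, adjusted p = 0.625 over 5 ratios to ISG15). The other 4 ratios to ISG15 differed by -0.90 (UBA7), -0.42 (UBE2L6), 0.56 (HERC5) and 0.70 (HERC6) in log2, with adjusted p of 0.625 to 0.900 by exact permutation tests. Without siMCT4 library 3 the differences were 1.30 for USP18, 1.31 for HERC6 and 1.15 for HERC5 over ISG15, 0.28 for UBE2L6 and -0.23 for UBA7, so the direction for UBE2L6 turns on that library. After GC correction the differences over ISG15 were 0.11 for USP18, 0.11 for HERC6, -0.04 for HERC5, -0.85 for UBE2L6 and -1.27 for UBA7. Those of UBE2L6 and UBA7 were thus larger in size than before correction, and the others smaller. By contrast, the ratio of USP18 to HERC6 was 2.70, 2.85 and 2.48 in siMCT4 libraries 1, 2 and 3, against 2.77, 2.66 and 2.92 in control libraries 1, 2 and 3. The groups overlapped, and the log2 ratio differed by -0.06 (exact permutation p = 0.5). For USP18 over HERC5 the difference was 0.08 (exact permutation p = 0.7). With 3 against 3 libraries these tests cannot pass 0.05.

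**Figure D2:**
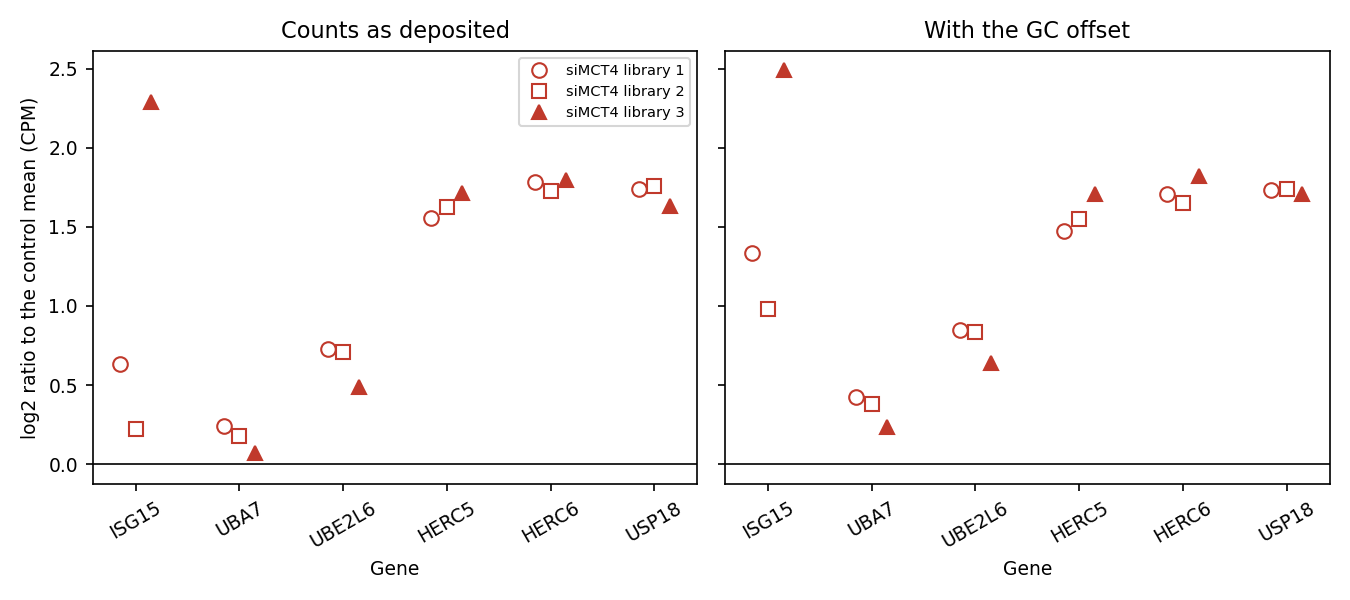
Log2 ratio of each member's CPM to its control mean in each siMCT4 library, from counts as deposited on the left and with a GC offset on the right; 0 is the control mean. HERC5, HERC6 and USP18 take nearly the same height in every siMCT4 library, whereas ISG15 is at 0.63, 0.22 and 2.29 in libraries 1, 2 and 3 on the left and at 1.34, 0.98 and 2.49 on the right.

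The siMCT4 libraries differed from each other most in GC-rich genes, and ISG15 is one of them. Among 11255 genes with a mean log2 CPM of at least 2, the siMCT4 range of ISG15, 2.07 in log2, was larger than that of 98.8%, and its control range of 0.54 larger than that of 95.8%. Its siMCT4 library 3 exceeded the mean of libraries 1 and 2 by 1.86, a gap larger than that of 99.3% of these genes. The gap was -0.14 for UBA7, -0.23 for UBE2L6, 0.12 for HERC5, 0.04 for HERC6 and -0.12 for USP18, so ISG15 alone among the 6 members was raised in library 3 beyond 0.12.

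The longest ISG15 transcript is 63.4% GC, against 58.3% for UBA7, 57.2% for UBE2L6, 51.6% for USP18, 46.3% for HERC6 and 44.1% for HERC5. The median gap was 0.26 over 1082 genes of 60 to 65% GC and 0.95 over 250 genes of at least 65%, and it lay between -0.11 and 0.09 in each class below 60%. In the 60 to 65% class, 5% of genes had gaps above 1.43, and the class's median log2 ratio to control was -0.46, -0.50 and -0.18 in siMCT4 libraries 1, 2 and 3. ISG15 was therefore above the middle of its GC class in all 3 siMCT4 libraries, and furthest in library 3. Of 30 other interferon-induced genes, 3 had a gap above 1 and 19 a gap below 0, with a median of -0.06. The 3 were LY6E with 1.76 at 64.2% GC, IFI6 with 1.48 at 56.1% and HELZ2 with 1.26 at 67.2%. They were picked after their values were seen. Large gaps were thus uncommon in that list, and of the 3 only IFI6 lay below 60% GC. Among 13 genes of the type I interferon signal chain, listed below, 1 had a gap above 1, at 1.85. The part of GC content in the ISG15 values was not tested.

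**Figure D3:**
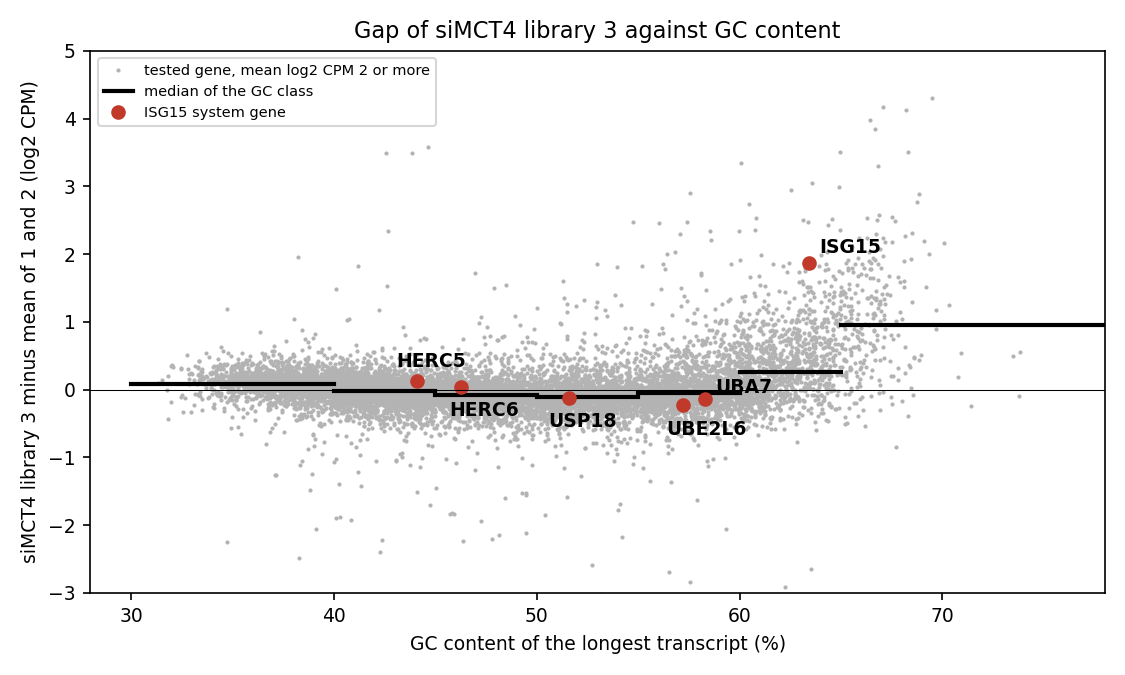
Gap between siMCT4 library 3 and the mean of siMCT4 libraries 1 and 2 (log2 CPM) against the GC content of the longest transcript (percent); grey points are 11166 genes, red points the members and black lines the medians of GC classes, with 29 genes outside the axes. ISG15 lies at 63.4% GC and a gap of 1.86, and the other 5 members lie between -0.23 and 0.12.

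When each library's counts were offset by a smooth curve of GC content, ISG15 was at 11.4, 8.91 and 25.3 CPM in siMCT4 libraries 1, 2 and 3, against 3.54, 4.74 and 5.24 CPM in control libraries 1, 2 and 3. Every siMCT4 library then lay well above every control, and library 3 was still the highest, with the siMCT4 range at 1.51 in log2. The log2 change was 1.76 (edgeR adjusted p = 0.00753), and 1.17 (edgeR adjusted p = 0.00203) without siMCT4 library 3. UBA7 had a log2 change of 0.35 (edgeR adjusted p = 0.00313) with the offset. ISG15 passed in 9 of 9 fits with a GC offset and in 1 of 17 without one, and UBA7 in 9 of 9 and 7 of 17. Most of these 9 fits leave out 1 library from the same fit and were chosen after seeing the data. The offset removes any difference between libraries that follows GC content, whatever its source. Whether ISG15 passed depended mostly on that choice, and without the offset it passed only when siMCT4 library 2 was left out. Whether UBA7 passed depended also on the scaling, the count filter, the use of FPKM or TPM and siMCT4 library 3.

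**Figure D4:**
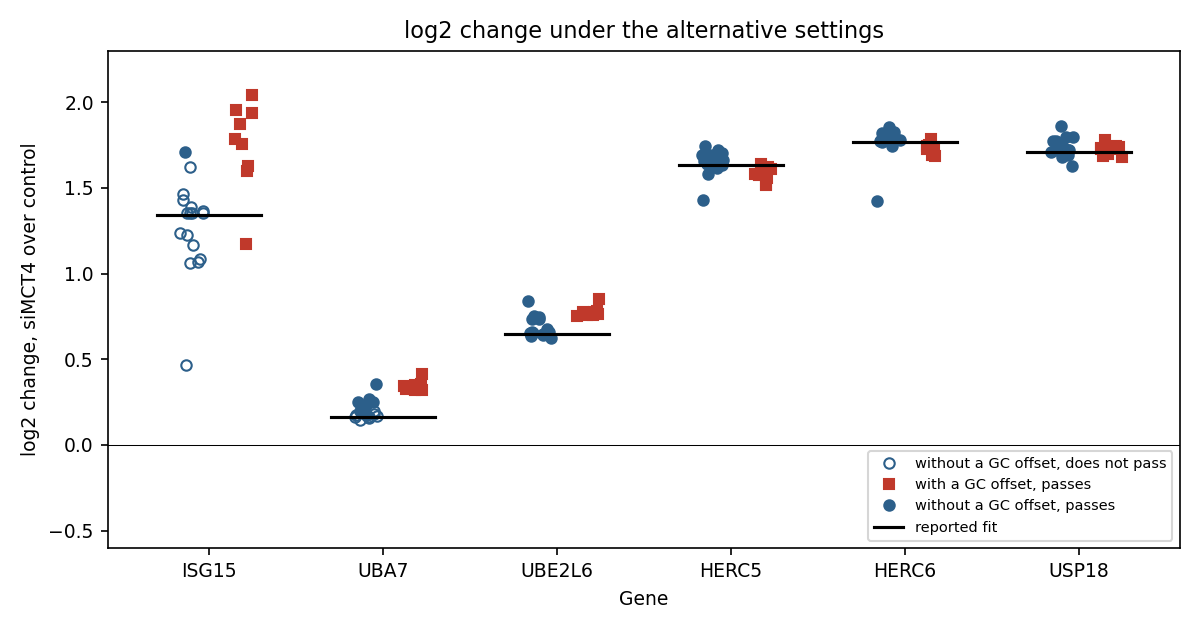
Log2 change, siMCT4 over control, of each member under 26 alternative fits; circles are fits without a GC offset and squares fits with one, filled markers pass an adjusted p of 0.05, open ones do not, and lines are the reported values. HERC5, HERC6, USP18 and UBE2L6 pass in all 26, and the ISG15 values run from 0.46 to 2.04.

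Outside the 6 members, 11 genes also act on ISG15, bind it or bind USP18. Of these, 1 rose, 5 fell and 5 did not pass, with a median log2 change of -0.10. Of all tested genes, 20.6% were called higher and 20.8% lower, a share that stands beside each list below. Secreted ISG15 is known to act on lymphoid cells through the integrin LFA-1, formed by ITGAL and ITGB2. ITGAL averaged 14.7 ± 0.405 CPM in siMCT4 and 55.0 ± 1.89 CPM in control libraries, and fell by 1.9 on the log2 scale (edgeR adjusted p = 1.12e-06). ITGB2, named after its values were seen, averaged 1597 ± 330.4 CPM in siMCT4 and 3981 ± 120.4 CPM in control libraries and fell by 1.32 (edgeR adjusted p = 0.000212). Both chains of the receptor were thus lower, while its ligand did not pass.

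Among enzymes, USP2, a protease reported to act on ISG15 conjugates, fell by 1.10 on the log2 scale (edgeR adjusted p = 2.82e-05). TRIM25, a ligase of ubiquitin and of ISG15, fell by 0.23 (edgeR adjusted p = 0.00678), and it did not pass on the 3 fits to FPKM or TPM. ARIH1, another ISG15 ligase, had a log2 change of -0.03 (edgeR adjusted p = 0.620). SKP2, a ubiquitin ligase subunit that promotes degradation of USP18 and was named after its values were seen, rose by 0.84 (edgeR adjusted p = 0.000367). Without siMCT4 library 3, 2 of the 11 genes rose and 4 fell.

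Of 18 reported ISG15 substrates, 10 rose, 2 fell and 6 did not pass (median log2 change 0.24). IFIT1, which binds foreign RNA, averaged 288 ± 10.7 CPM in siMCT4 and 3.76 ± 0.348 CPM in control libraries, a log2 change of 6.26 (edgeR adjusted p = 7.85e-08). IFIT3, its partner, averaged 214 ± 6.28 CPM in siMCT4 and 17.0 ± 0.903 CPM in control libraries, a log2 change of 3.66 (edgeR adjusted p = 1.32e-07). These 2 are interferon-induced genes themselves, and several of the substrates that rose stand in both lists. Protein conjugates were not measured.

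Of 30 interferon-induced genes outside the conjugation system, 27 rose, 0 fell and 3 did not pass, with a median log2 change of 2.24. The members that rose, at 0.65 to 1.77, were all below that median. Without siMCT4 library 3, 27 rose and 2 fell. Of 13 genes of the type I interferon signal chain, 7 rose, 1 fell and 5 did not pass (median 0.31), and 7 rose and 5 fell without that library, so the number of falls depends on it. STAT2, of the complex that binds the response element, rose by a log2 change of 0.52 (edgeR adjusted p = 0.000598). IFNAR2, the receptor chain that USP18 binds, rose by 0.31 (edgeR adjusted p = 0.00489). IRF1, an interferon-regulated transcription factor, fell by 0.60 on the log2 scale (edgeR adjusted p = 0.000416).

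The enzymes of other modifiers went both ways, as did all tested genes, of which 20.6% were called higher and 20.8% lower. Of 9 genes for E1 enzymes or their subunits other than UBA7, 3 rose and 4 fell (median 0.07). UBA3, of the NEDD8 E1, rose by 0.53 and UBA6, a second ubiquitin E1, by 0.36, while UBA2, of the SUMO E1, fell by 0.48 on the log2 scale (edgeR adjusted p = 0.000246, 0.00501 and 7.03e-05). UBA1, the main ubiquitin E1, fell by 0.17 (edgeR adjusted p = 0.0124), a call lost in 17 of 26 alternatives, with a log2 change of -0.14 (edgeR adjusted p = 0.0806) without control library 1 among them.

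Of 19 ubiquitin E2 genes, 7 rose and 4 fell (median 0.08). UBE2B, which acts with RAD18 ligase in DNA damage tolerance, rose by 0.56 and UBE2N, which builds lysine-63 chains, by 0.42 (edgeR adjusted p = 0.000261 and 0.00153). UBE2L3, the closest relative of UBE2L6, rose by 0.30 (edgeR adjusted p = 0.0266), a call lost in 5 alternatives, among them the fits without control library 1, control library 2, siMCT4 library 1 or siMCT4 library 2 (edgeR adjusted p = 0.0711 to 0.0768). Each of these changes was smaller than the 0.65 of UBE2L6, and the differences between genes were not tested.

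Of the 4 other HERC ligases, HERC3 rose by 0.57 (edgeR adjusted p = 0.000204), the giant HERC1 fell by 0.43 on the log2 scale (edgeR adjusted p = 0.00132), and HERC2 and HERC4 did not pass. Of 15 genes for ubiquitin and other ubiquitin-like modifiers, 3 rose and 6 fell (median -0.19). MAP1LC3B, the autophagy modifier LC3B, fell by 0.44 on the log2 scale (edgeR adjusted p = 0.000138).

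**Figure D5:**
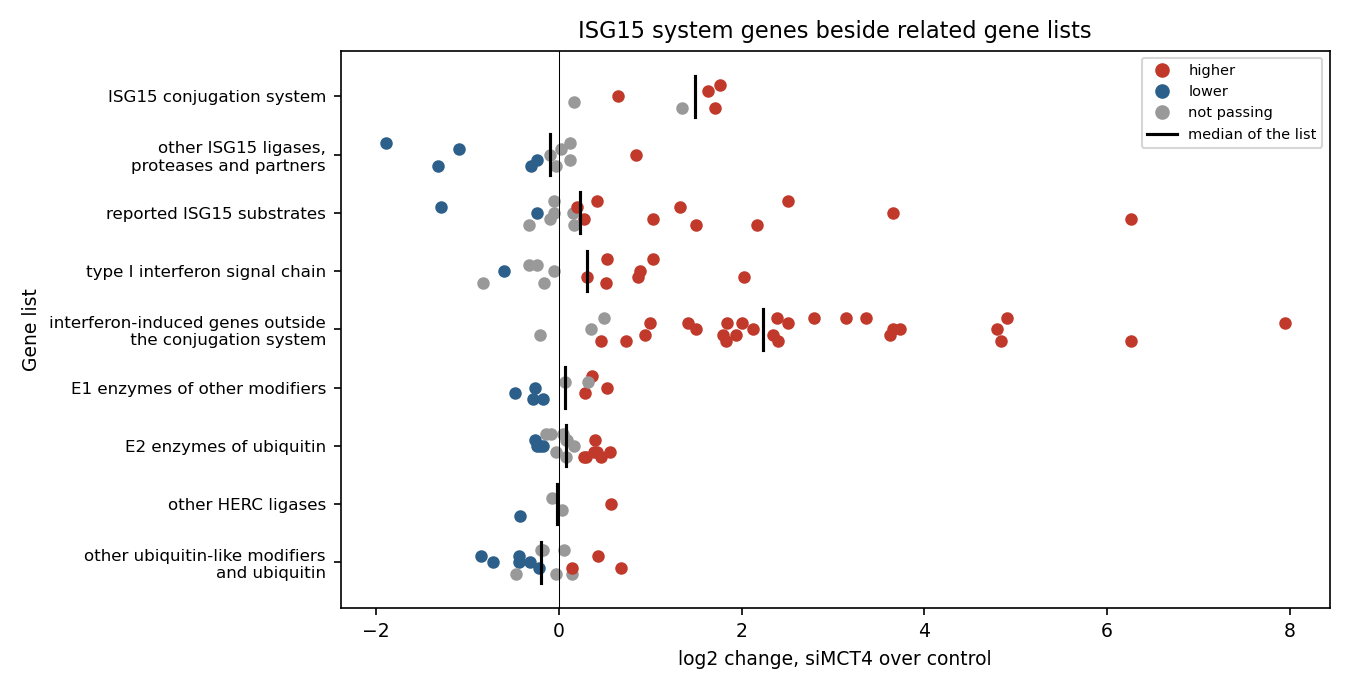
Log2 change, siMCT4 over control, of every tested gene of the members' list and of the 8 related lists; red genes were called higher, blue genes lower and grey genes did not pass an adjusted p of 0.05, and short lines are medians. The members' median is 1.49 and that of the interferon-induced list 2.24, and the other medians lie between -0.19 and 0.31.

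The genes most like a member were found by the root-mean-square (RMS) difference of the 6 log2 ratios to the control mean, over the 6 libraries and among 10973 other genes that have a symbol and a mean log2 CPM of at least 2. For ISG15 the nearest 5 were RBM47, SHISA3, H2AC6, BATF2 and FGD2, at RMS differences of 0.48 to 0.50. No gene thus matched its 6 ratios closely. The measure takes in the overall change as well as the unevenness, so a gene as uneven at another level would not be found by it. The other 5 members each had a gene within 0.0638. USP18 had LRG1 (0.0517) and PLSCR1 (0.0698), HERC5 had OPN3 (0.0544) and INHBA (0.0596), and HERC6 had RIPK2-DT (0.0638). UBE2L6 had RUNDC1 (0.0305) and ATP6V1FNB (0.0320), and UBA7 had ZNF274 (0.0143) and RTF1 (0.0178).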

How the data were processed

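Polyadenylated RNA was sequenced as paired ends after a dUTP preparation that marks strand, per the labels' protocols. Trimming with cutadapt 1.9, alignment with HISAT2 2.2.1 and the build GRCh38 are named in the submitters' processing notes, and how reads were counted (tool, annotation, strand) is not given in the sources used here. The deposited raw counts and FPKM, named so per the file headers, stand side by side for each gene and library, with 0 columns unused. From 58.7 to 60.9% of the counts between 2 and 41 were even, so 2 counts may stand for 1 fragment.

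Counts were tested with edgeR 4.0.16 (R 4.3.3; quasi-likelihood, TMM scaling, filterByExpr with a smallest count of 10 and total of 15, group as the sole factor, two-sided). Benjamini-Hochberg adjustment ran over all 19944 genes, and calls used an adjusted p below 0.05. CPM values are TMM-scaled, and dividing the log2 change by the root of the F statistic gave the SE. Within-library ratios used FPKM with 0.01 added. GC offsets were natural splines with 5 degrees of freedom per library over the longest transcript of each gene, known for 96.8% of tested genes. Transcript copies were sought with blastn 2.17.0. The edgeR fit, with and without a replicate block or a GC offset, and the DESeq2 fit were run on simulated counts. Alternatives included DESeq2 1.42.0, limma 3.58.1, other scalings, filters, GC offsets and leaving out each library. GC offsets combined with a left-out library, and list counts under each setting, were chosen after seeing the data.

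The members, lists and tests were chosen with earlier results of these data known. Genes named are every member, SLC16A3, the 2 members of each related list with the smallest adjusted p, a fixed set of relatives, the 5 genes most like ISG15 and 2 most like each other member, and neighbours by coordinates. A gene most like HERC6 and a few other genes under this rule are not reported here. UBD is not analysed here. Gene symbol RIGI was matched to its older name DDX58. Where a symbol stood in several rows, as HERC3 did, the row with the highest mean FPKM was used.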

Additional observations from a re-analysis of the deposited data

How the results depend on the processing

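Genes called higher numbered 4116 and lower 4144, and 3341 to 6245 higher and 2886 to 4814 lower over the alternatives, with 6245 higher by limma on log2(TPM + 1), where the median of all genes moved by 0.13. The log2 change of ISG15 passed at 1.76 with a GC offset, 1.95 with GC and length, and 1.63 with GC and a replicate block, and it was 0.46 to 2.04 with 1 library left out. UBA7 passed at 0.20 (upper quartile), 0.25 (library totals), 0.18 (smallest count 50), 0.25 (log2(FPKM + 1)), 0.27 (FPKM + 0.1), 0.36 (TPM), 0.35 (GC), 0.33 (GC and length) and 0.35 (GC and block), and was 0.15 to 0.41 with 1 library left out. ARIH1 turned positive at 0.054 (totals), 0.064 and 0.075 (FPKM + 1 and + 0.1) and 0.16 (TPM), and was -0.12 to 0.016 with 1 library left out. UBA1 was 0.029 on TPM. TUBA8 was -0.20 to 0.79 and UBE2L6 over ISG15 -0.87 to 0.28 with 1 library left out. HERC5 over ISG15 was -0.043 after GC correction, and USP18 over HERC6 was 0.20 with FPKM + 1 and 0.00137 after GC correction. The cause of these shifts was not tested.

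Replicate numbers were shared between groups. In deviations from their group means over 11255 genes, same-numbered libraries correlated at -0.31, -0.03 and -0.17, and differently numbered ones at -0.10 to 0.24. These values give no sign of pairing by number, but with 3 libraries per group they cannot exclude it. With the replicate as a block ISG15 was at 1.07 (edgeR adjusted p = 0.0865), and no member's call changed. ISG15, at 292 to 1892 counts, is the member with the fewest counts in every library. HERC6 comes next at 688 to 2674 counts, and its SE was 0.0704, beside 0.516 for ISG15. The part of depth in the spread of ISG15 was not tested.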

Other observations

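The tested genes beside ISG15 and UBA7 in the genome were called lower, those beside UBE2L6 higher, and that beside USP18 did not pass. Of all tested genes, 41.4% were called, 20.6% higher and 20.8% lower, so a call of a neighbour is not unusual. HERC5 and HERC6 neighbour each other, and both rose. Distances are between the intervals of the deposited table, where ISG15 begins well before its RefSeq start. AGRN, a heparan sulfate proteoglycan gene 5580 bases after ISG15 on the same strand, had 1182, 1148 and 7214 counts in siMCT4 libraries 1, 2 and 3, against 13828, 11946 and 10258 counts in control libraries 1, 2 and 3. Library 3 of siMCT4 was again the highest of its group, but below all controls, and AGRN fell by 2.02 on the log2 scale (edgeR adjusted p = 0.0464). That call was lost in 10 of 26 alternatives, with log2 changes of -2.10 to -1.60 (edgeR adjusted p = 0.0996 to 0.120) without any 1 library other than siMCT4 library 3. Without siMCT4 library 3 the log2 change was -3.38 (edgeR adjusted p = 4.12e-07). HES4, a Notch target 966 bases from ISG15 on the other strand, had 0, 0 and 7 counts in siMCT4 and 10, 13 and 27 counts in control libraries, too few to test.

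INKA1 lies on the other strand from UBA7, and its gene ends 179 bases from the end of the UBA7 gene. INKA1 had 24, 16 and 15 counts in siMCT4 and 70, 77 and 110 counts in control libraries. It fell by 2.28 on the log2 scale (edgeR adjusted p = 0.00176, lost in 1 of 26 alternatives). TRAIP, a ubiquitin ligase on the other side of UBA7, fell by 1.42 (edgeR adjusted p = 0.0334), a call lost in 11 of 26 alternatives. Without any 1 library other than siMCT4 library 2 its log2 change was -1.49 to -1.14 (edgeR adjusted p = 0.0557 to 0.106), and -2.11 without that library. Both neighbours of UBA7 were thus lower while UBA7 did not pass.

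SERPING1, the C1 inhibitor of complement, 29103 bases from UBE2L6, had 1479, 1674 and 1730 counts in siMCT4 and 61, 23 and 55 counts in control libraries. It rose by a log2 change of 5.06 (edgeR adjusted p = 1.82e-05), more than any member. SMTNL1, 1384 bases from UBE2L6 on the other strand, had 71, 73 and 69 counts in siMCT4 and 16, 25 and 21 counts in control libraries and rose by 1.70 (edgeR adjusted p = 0.00297). TUBA8, before USP18, had a log2 change of 0.28 (edgeR adjusted p = 0.762). Whether the moves of neighbours and members are related was not tested.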
